A study of Neurospora crassa with 33 samples.

Results

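The footprint response of host genes to the codon version of a reporter was measured in *Neurospora crassa* strains with an intact *cpc-3* gene. The members are all ribosome protected fragment (RPF) libraries of the WT host, which are 12 of the 33 libraries in the series. There were 6 libraries from OPT-EDP strains, 3 for each copy number, and they were set against 6 libraries from WT-EDP strains, again 3 for each copy number. EDP is the product of NCU05784, a small hypothetical protein. The reporters hold 1 copy or 3 tandem copies of its coding sequence (CDS) behind a Flag tag, with WT codons (the native ones) or with OPT codons (synonymous codons preferred in *N. crassa*), and the encoded protein is the same in both codon versions. All 4 strains were transformants of a WT host, with the reporter at the *csr-1* locus under the *ccg-1* promoter, and all were grown alike as mycelia in 2% glucose medium with shaking under constant light. The labels give all strains the same culture time, and cycloheximide was added to the lysis buffer only. Each codon version at each copy number was 1 strain, so the codon version and anything else that sets a transformant apart cannot be told apart within a copy number. The methods call the 3 libraries of a strain biological replicates, and p-values below measure the spread between those libraries.

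Both reporter entries of NCU05784 were left out, and 9729 host genes remained. Codon usage is known to set the speed at which ribosomes move along an mRNA, since codons read by scarce tRNAs are decoded slowly. Slow or paused ribosomes can activate CPC-3, the *N. crassa* counterpart of the yeast kinase Gcn2, which phosphorylates the initiation factor eIF2α and lowers initiation. In that pathway, called cross-pathway control, translation of the activator CPC-1 (the counterpart of yeast Gcn4) rises and genes of amino acid biosynthesis are induced. The comparison asks whether host genes had other footprint levels in strains that express the optimized reporter than in strains that express the native one.

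The libraries held 2741252 to 10035080 reads on CDS regions, with a median of 3859825 in OPT-EDP and 7234045 in WT-EDP libraries. RPF levels are given as host TPM, the FPKM deposited by the authors rescaled so that all host genes of a library have the same sum, as in TPM. NCU16635, a CDS of 78 nt, was kept out of that sum because it took 22.4% to 25.4% of the host FPKM in replicates 1 and 2 of each strain and only 10.01% to 12.1% in replicate 3. The 6 hyphal markers that were looked up were found in all 12 libraries. *tef-1* (elongation factor) was at 6518 to 9151 TPM and *act* (actin) at 1674 to 2048 TPM. The lowest of the 6 was the chitin synthase gene *chs-4*, at 17.4 to 22.1 TPM. *chs-2* and *gs-1*, which had also been chosen as hyphal markers, were not among those looked up. Among the conidiation markers *con-13* was listed at 0 in all 12 libraries and *con-6* in 8, whereas *con-8* was at 567 to 1175 TPM and *eas*, the hydrophobin of the conidial coat, at 1021 to 2233 TPM. The other conidiation markers were above 0 in all 12 libraries, from *acon-3* (0.160 to 1.48 TPM) to *csp-1* (50.5 to 80.3 TPM). The 1× WT-EDP strain stood apart from the other 3 strains, as described next, and results are therefore also given without its 3 libraries.

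Of 6801 host genes with a mean of at least 1 TPM, 159 were higher and 182 lower in OPT-EDP than in WT-EDP strains (limma on log2(TPM + 0.1), adjusted p under 0.05 after Benjamini-Hochberg adjustment). These are 2.34% and 2.68% of the tested genes. The differences were mostly small. With an additional threshold of 1.5-fold, 38 genes were higher and 31 lower, and the median log2 difference of all tested genes was -0.023. In 79 genes (1.16%) every OPT-EDP library was above every WT-EDP library, and in 104 genes (1.53%) every one was below. With only the 3 libraries of 3× WT-EDP on the WT-EDP side these counts were 122 and 203. Separation from 3 libraries is easier to reach than from all WT-EDP libraries. The 2 pairs of counts are therefore not comparable. Scaling by the sum over all entries, NCU16635 included, left 61 genes higher and 41 lower, a larger share of higher genes. With replicate number added to the fit as a block, 308 genes were higher and 401 lower.

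Most of these calls were lost without the 1× WT-EDP strain. Between the 6 pairs of strains, which share libraries with one another, the numbers of genes called at an adjusted p under 0.05 fell into 2 classes. Against 1× WT-EDP, 297 genes were higher and 147 lower in 1× OPT-EDP, 191 higher and 281 lower in 3× OPT-EDP, and 116 higher and 58 lower in 3× WT-EDP, a strain of the same codon version. Between the other 3 strains few genes were called. In 3× OPT-EDP 6 were higher and 16 lower than in 3× WT-EDP. In 1× OPT-EDP 2 were higher and 0 lower than in 3× WT-EDP. In 3× OPT-EDP 0 were higher and 3 lower than in 1× OPT-EDP. At an unadjusted p under 0.05 (limma) the split was less sharp. The counts were 1393, 1442 and 930 in the 3 pairs with 1× WT-EDP, in the order given. They were 763, 694 and 854 in the other 3 pairs. Without the 1× WT-EDP libraries, 5 genes were higher and 1 was lower in OPT-EDP (599 genes at an unadjusted p under 0.05), and 5 of these 6 were among the 341 called with all 12 libraries. The higher genes were NCU00855, NCU02084, NCU04211, *acu-6* and NCU04551, the last of which has very few reads, and the lower gene was NCU09326. Without 3× WT-EDP, 252 were higher and 223 lower, without 1× OPT-EDP 80 and 161, and without 3× OPT-EDP 54 and 24. Of the 159 genes that were higher in OPT-EDP, 149 had their lowest mean in 1× WT-EDP and 10 in 3× WT-EDP. Of the 182 lower genes, 155 and 27 had their highest mean in these strains. The genes were called from these same means, which favours a WT-EDP strain as the extreme. These counts therefore describe the called genes and are not a test of them.

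**Figure D1:**
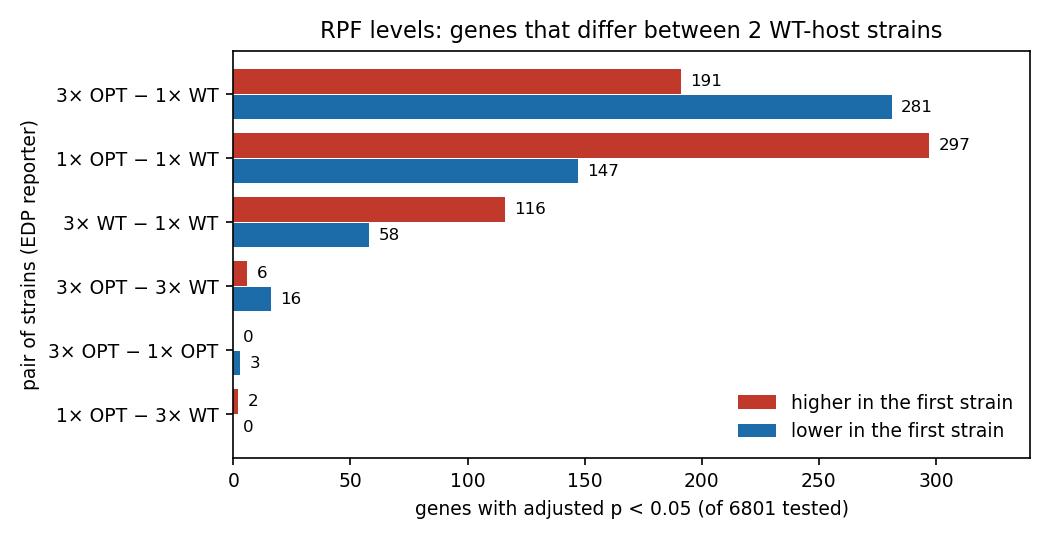
Number of host genes whose RPF level differed between the strains of each pair (limma, adjusted p under 0.05, of 6801 tested), with genes higher in the first-named strain in red and lower in blue. The 3 pairs that contain 1× WT-EDP hold 174 to 472 calls, and the 3 pairs without it hold 2 to 22.

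Within equal copy number the response was accordingly unequal. At 1 copy, 297 genes were higher in OPT-EDP (4.37%) and 147 lower (2.16%). At 3 copies, 6 genes were higher (0.0882%) and 16 lower (0.235%). Here the split between directions depended on the scaling. Median-ratio scaling, which centres the log2 differences near 0, gave 219 higher and 176 lower genes at 1 copy and 12 higher and 8 lower at 3 copies, and the use of interval midpoints in place of FPKM gave 256 higher and 209 lower at 1 copy. Scaling over all entries left 2 higher and 0 lower genes at 3 copies. With a replicate block 523 genes were higher and 284 lower at 1 copy, and 17 higher and 41 lower at 3 copies. With host TPM the median of all tested genes was 0.035 at 1 copy and -0.073 at 3 copies.

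The difference between the copy numbers was itself tested as an interaction, and 68 genes were called (1%), 12 with a higher and 56 with a lower codon difference at 3 copies. Median-ratio scaling gave 21 and 34, and a replicate block 28 and 165. For the 159 genes that rose over all 12 libraries the median codon difference (log2) was 0.61 at 1 copy and 0.18 at 3 copies, and for the 182 that fell it was -0.39 and -0.31. The libraries of both copy numbers entered the calls, so these medians describe the called genes and are not a test of them.

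Only 10 genes were called at both copy numbers, and they were named after their values were seen. NCU00855, NCU01871, NCU02084, NCU04058 and NCU05126 were higher in OPT-EDP at both, NCU07232, NCU08418 and NCU08739 were lower at both, and *ncw-5* and *tcu-1* went in opposite directions. In the plot of 1 against 3 copies most called genes lie along the horizontal axis.

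**Figure D2:**
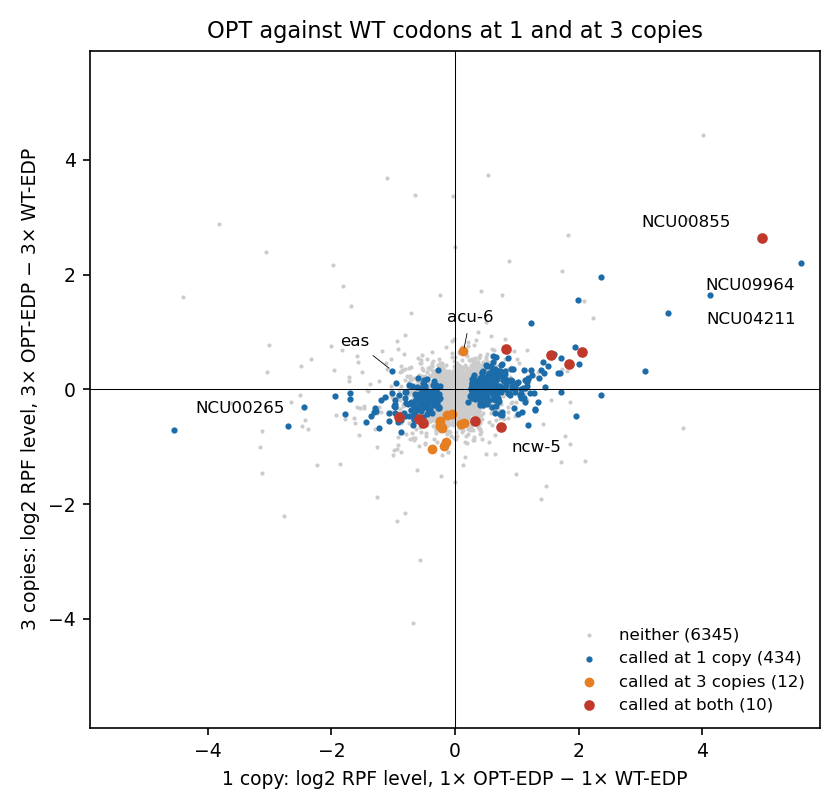
Log2 difference in RPF level between OPT-EDP and WT-EDP strains at 1 copy (horizontal) and at 3 copies (vertical), 1 point per gene for the 6801 tested genes. Genes called only at 1 copy (blue) spread along the horizontal axis from -4.55 to 5.6, 12 genes (orange) were called only at 3 copies, and 10 genes (red) were called at both.

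Among the genes with the largest rises, NCU00855 (CDS of 399 nt) had the smallest p-value of the test. Its RPF level was 2.84, 5.54 and 4.68 TPM in 1× WT-EDP and 12.98, 11.8 and 14.3 TPM in 3× WT-EDP. It was 128, 133 and 141 TPM in 1× OPT-EDP and 80.4, 94.03 and 72.01 TPM in 3× OPT-EDP. All OPT-EDP libraries lay far above all WT-EDP libraries, and both OPT-EDP strains and both WT-EDP strains also differed from each other by more than the spread of their libraries. The mean over 6 libraries was 12.4-fold higher in OPT-EDP (log2 difference 3.80, SE 0.15, limma adjusted p = 7.2e-07), with 4.96 at 1 copy and 2.64 at 3 copies (adjusted p = 0.001). Without 1× WT-EDP it was 3.00 (adjusted p = 1.1e-05). It also differed between 1× OPT-EDP and 3× WT-EDP (log2 difference 3.35, limma adjusted p = 5.0e-05).

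The mRNA of NCU00855 was listed at 0 and 3.25 TPM in the 1 mRNA library each of 1× and 3× WT-EDP, and at 40.7 and 29.4 TPM in those of 1× and 3× OPT-EDP. With 2 libraries against 2, that difference had an adjusted p of 0.89 (limma). In the Δ*cpc-3* host, whose transformants carry the same 4 reporters, its RPF level was 8.14 to 56.2 TPM in 1× WT-EDP, 30.97 to 46.2 TPM in 3× WT-EDP, 25.5 to 43.4 TPM in 1× OPT-EDP and 45.1 to 49.99 TPM in 3× OPT-EDP. There the codon versions overlapped, and the difference at 3 copies was 0.41 (adjusted p = 0.88).

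NCU02084 was the other strongly measured gene among the 10 largest rises. It had 10.2, 9.80 and 12.3 TPM in 1× WT-EDP and 27.1, 28.4 and 31.3 TPM in 3× WT-EDP, against 47.5, 42.8 and 43.5 TPM in 1× OPT-EDP and 44.7, 44.9 and 46.7 TPM in 3× OPT-EDP. The groups did not overlap, but the WT-EDP strains were themselves well apart while the OPT-EDP strains were alike. The log2 difference was 1.35 (SE 0.067, limma adjusted p = 4.3e-06), with 2.05 at 1 copy and 0.65 at 3 copies. Without 1× WT-EDP it was 0.64 and still passed the test (adjusted p = 0.032).

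Several of the largest rises were in genes with few reads. NCU09964 was listed at 0 in all 3 libraries of 1× WT-EDP and at 0.378, 1.70 and 0.613 TPM in 3× WT-EDP, and it had 5.87, 7.71 and 2.34 TPM in 1× OPT-EDP and 3.01, 4.72 and 3.84 TPM in 3× OPT-EDP. Its highest library held an estimated 38.5 reads, and without 1× WT-EDP its adjusted p was 0.2 (limma). Against a floor of 3 reads in each 1× WT-EDP library it was at least 10.5-fold higher in OPT-EDP at 1 copy, and at 3 copies it was 4.30-fold higher (adjusted p = 0.13).

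NCU05788 had 7.55, 4.02 and 8.03 TPM in 1× WT-EDP, 25.6, 19.4 and 16.8 TPM in 3× WT-EDP, 86.1, 59.7 and 64.4 TPM in 1× OPT-EDP and 68.1, 64.8 and 30.2 TPM in 3× OPT-EDP. Its lowest OPT-EDP library lay just above its highest WT-EDP library. The log2 difference was 2.39 (SE 0.25, limma adjusted p = 0.00058), and 1.55 without 1× WT-EDP (adjusted p = 0.15). Its mRNA was listed at 0 in both WT-EDP libraries and at 40.2 and 28.97 TPM in the OPT-EDP libraries.

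NCU04211 was at 1.51, 0.808 and 0.259 TPM in 1× WT-EDP, 4.16, 2.86 and 2.81 TPM in 3× WT-EDP, 11.4, 15.4 and 15.6 TPM in 1× OPT-EDP and 10.7, 13.4 and 7.58 TPM in 3× OPT-EDP. It was one of the 5 genes still called higher without 1× WT-EDP (log2 difference 1.86, limma adjusted p = 0.032). The remaining 5 of the 10 largest rises (NCU11340, NCU00509, NCU09424, NCU07138 and NCU09278) rose by 1.34 to 3.36 on the log2 scale, had at most 104.5 estimated reads in any library, and failed the test without 1× WT-EDP, with adjusted p from 0.14 to 0.46. For NCU11340, listed at 0 in 4 of the 6 WT-EDP libraries, the fitted value depends on the 0.1 added to each TPM.

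The 3 other genes that rose at both copy numbers had many more reads. NCU05126 was at 154, 159 and 148 TPM in 1× WT-EDP, 399, 415 and 376 TPM in 3× WT-EDP, 541, 559 and 549.8 TPM in 1× OPT-EDP and 546, 546 and 518 TPM in 3× OPT-EDP. NCU01871 was at 209.7, 202 and 180.2 TPM, 270.0, 264 and 240.4 TPM, 359, 376 and 315 TPM and 435, 433 and 396 TPM in the same order, and was the only 1 of the 3 to be higher in 3× than in 1× OPT-EDP. NCU04058 was at 36.6, 42.2 and 42.5 TPM, 78.8, 77.9 and 69.6 TPM, 121, 127 and 106 TPM and 119, 112 and 113 TPM. In each of them the codon groups were separate, and the level rose from 1× WT-EDP to 3× WT-EDP before it rose again to the OPT-EDP strains. The log2 differences over all 12 libraries were 1.14, 0.77 and 1.07, and without 1× WT-EDP they were 0.46, 0.57 and 0.62 (limma adjusted p = 0.052, 0.077 and 0.051).

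Of the 6 genes called higher at 3 copies only *acu-6* had a symbol. It encodes phosphoenolpyruvate carboxykinase of gluconeogenesis and was named after its values were seen. It had 33.97, 35.3 and 34.8 TPM in 1× WT-EDP and 30.7, 28.8 and 30.5 TPM in 3× WT-EDP, against 39.6, 35.8 and 39.01 TPM in 1× OPT-EDP and 47.4, 47.1 and 47.9 TPM in 3× OPT-EDP. The codon groups were separate, though by little at 1 copy. The log2 difference was 0.40 over all libraries (SE 0.044, limma adjusted p = 0.00088), 0.14 at 1 copy (adjusted p = 0.26), 0.66 at 3 copies (adjusted p = 0.0022) and 0.50 without 1× WT-EDP (adjusted p = 0.045).

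The largest falls were smaller than the largest rises, and none of the 10 held without 1× WT-EDP, where their adjusted p were 0.2 to 0.53. NCU00265 was at 13.8, 13.7 and 19.9 TPM in 1× WT-EDP, 6.08, 5.55 and 5.12 TPM in 3× WT-EDP, 1.92, 4.09 and 2.69 TPM in 1× OPT-EDP and 5.003, 3.73 and 4.84 TPM in 3× OPT-EDP. The 3× WT-EDP libraries lay just above the OPT-EDP libraries and far under those of 1× WT-EDP. It fell by 1.38 on the log2 scale (SE 0.17, limma adjusted p = 0.0018), and the difference was -2.45 at 1 copy and -0.31 at 3 copies.

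Among the falling genes with a known product were *lao*, which encodes an L-amino acid oxidase that releases ammonium from amino acids, and *chit-1*, which encodes a chitinase. The RPF level of *lao* was 11.3, 12.5 and 10.9 TPM in 1× WT-EDP, 6.59, 6.76 and 7.19 TPM in 3× WT-EDP, 4.79, 4.39 and 5.37 TPM in 1× OPT-EDP and 4.01, 5.34 and 3.52 TPM in 3× OPT-EDP. That of *chit-1* was 14.97, 15.2 and 15.5 TPM, 8.14, 9.73 and 8.62 TPM, 6.65, 5.82 and 6.20 TPM and 5.99, 6.59 and 7.74 TPM in the same order. In both, every OPT-EDP library was below every WT-EDP library, and the means were 2.01-fold and 1.85-fold lower (log2 differences -0.96 and -0.83, limma adjusted p = 0.00057 and 0.00021). At 3 copies they were -0.68 and -0.38 (adjusted p = 0.09 and 0.21).

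NCU07159 and *mig-4* had their highest levels in 1× WT-EDP too. NCU07159 was at 25.3, 23.6 and 25.6 TPM in 1× WT-EDP, 14.2, 13.4 and 11.9 TPM in 3× WT-EDP, 9.35, 8.57 and 9.49 TPM in 1× OPT-EDP and 7.65, 8.69 and 10.4 TPM in 3× OPT-EDP. For *mig-4* the levels were 43.2, 48.1 and 57.1 TPM, 23.4, 22.2 and 24.2 TPM, 12.96, 16.7 and 15.5 TPM and 17.8, 21.1 and 23.6 TPM, and its 3× OPT-EDP libraries overlapped those of 3× WT-EDP. The other 5 of the 10, NCU07200, NCU09695, NCU08660, NCU04932 and NCU09992, had log2 differences of -0.92 to -0.75. The map of the 20 genes by library shows that the step from 1× WT-EDP to the other strains recurred in most of them.

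**Figure D3:**
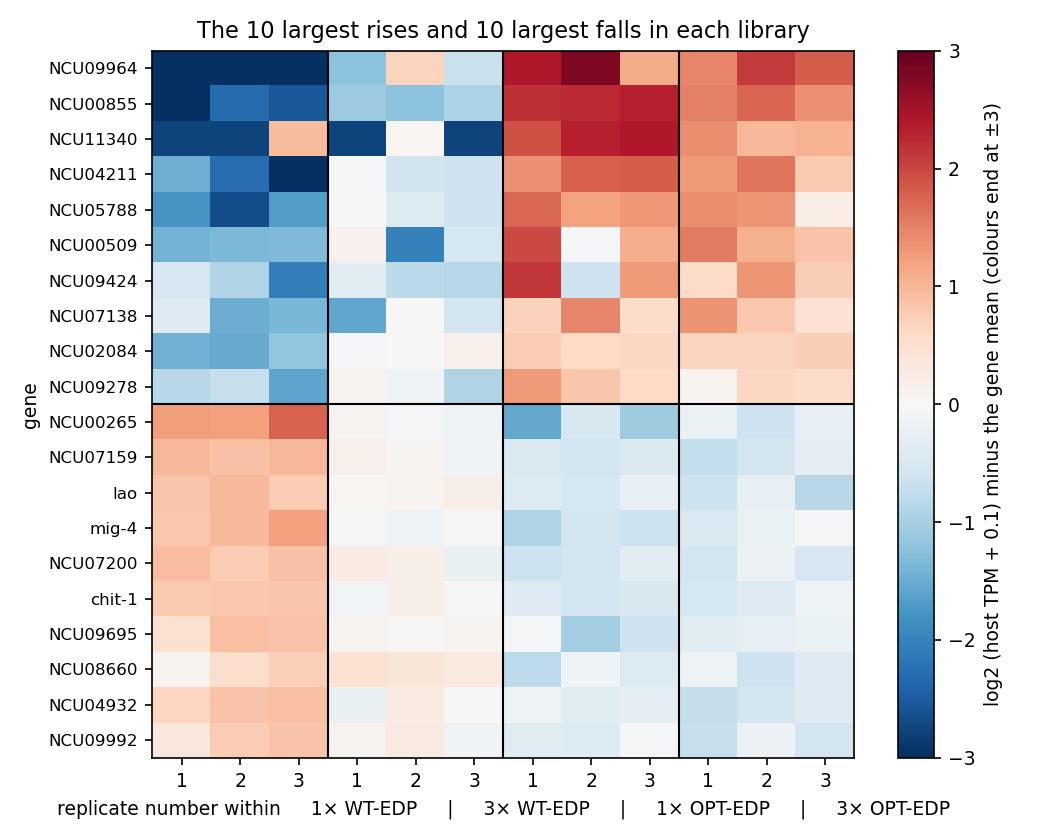
RPF level of the 10 genes with the largest rise and the 10 with the largest fall in each of the 12 libraries, as log2(host TPM + 0.1) minus the mean of the gene (colour, ending at ±3). Rows are genes and columns are libraries by strain. The 1× WT-EDP columns are the bluest in most of the rises and the reddest in most of the falls.

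The 3 genes lower at both copy numbers had well measured levels. NCU08739 was at 27.99, 29.99 and 28.8 TPM in 1× WT-EDP, 18.1, 19.00 and 18.7 TPM in 3× WT-EDP, 14.4, 15.7 and 15.9 TPM in 1× OPT-EDP and 13.8, 12.4 and 13.8 TPM in 3× OPT-EDP. NCU08418 was at 54.4, 58.9 and 53.3 TPM, 51.5, 46.9 and 45.8 TPM, 35.04, 40.2 and 36.5 TPM and 35.4, 32.7 and 32.7 TPM in the same order. NCU07232 was at 186, 187 and 201 TPM, 120.3, 109 and 109.9 TPM, 134, 120.3 and 149 TPM and 81.7, 71.1 and 71.8 TPM. In NCU07232 the 1× OPT-EDP libraries overlapped those of 3× WT-EDP, so only the comparison within a copy number separated them. Without 1× WT-EDP the log2 differences of the 3 genes were -0.38, -0.44 and -0.18 (limma adjusted p = 0.15, 0.14 and 0.63). The 1 gene called lower without that strain was NCU09326, named after its values were seen, at 101 to 111 TPM in WT-EDP and 66.4 to 93.3 TPM in OPT-EDP libraries (log2 difference -0.46, adjusted p = 0.045). At 3 copies its difference was -0.67 (adjusted p = 0.0018) and at 1 copy -0.21 (adjusted p = 0.075).

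For *ncw-5*, a cell wall protein gene, and *tcu-1*, a copper transporter gene, the codon difference turned with the copy number. The RPF level of *ncw-5* was 87.6, 88.1 and 89.7 TPM in 1× WT-EDP, 102, 128 and 119 TPM in 3× WT-EDP, 157, 151 and 138 TPM in 1× OPT-EDP and 79.04, 63.9 and 77.3 TPM in 3× OPT-EDP. For *tcu-1* it was 41.7, 43.1 and 44.4 TPM, 57.9, 63.8 and 57.7 TPM, 53.6, 51.01 and 56.7 TPM and 39.4, 44.2 and 39.3 TPM. In both genes 1× WT-EDP and 3× OPT-EDP were the low strains. The log2 difference of *ncw-5* was 0.75 at 1 copy (limma adjusted p = 0.0033) and -0.66 at 3 copies (adjusted p = 0.035), and over all libraries it was 0.041 (adjusted p = 0.83). NCU04551, named after its values were seen, split by copy number alone, with 1.32, 1.42 and 1.86 TPM in 1× WT-EDP and 1.97, 3.68 and 4.84 TPM in 1× OPT-EDP but 0 listed in all 6 libraries of the 3-copy strains. It had at most 6.50 reads in a library, and no fold is given for it.

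*eas* had the opposite pattern. Its RPF level was 2233, 2217 and 2057 TPM in 1× WT-EDP, 1102, 1174 and 1203 TPM in 3× WT-EDP, 1021, 1103 and 1096 TPM in 1× OPT-EDP and 1466, 1429 and 1450 TPM in 3× OPT-EDP. It was thus high in 1× WT-EDP, intermediate in 3× OPT-EDP and low in the other 2 strains, with no overlap between these 3 levels. The log2 difference was -1.01 at 1 copy (limma adjusted p = 2.1e-05), 0.32 at 3 copies (adjusted p = 0.091) and -0.35 over all libraries (adjusted p = 0.0027), and without 1× WT-EDP it was 0.11 (adjusted p = 0.67). Its mRNA was at 1282 TPM in 1× WT-EDP and 677 to 849 TPM in the other 3 strains. In the Δ*cpc-3* host the 3-copy difference was 1.33 (adjusted p = 0.039). These are bulk cultures, in which fewer cells of a type and fewer footprints per cell cannot be told apart.

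**Figure D4:**
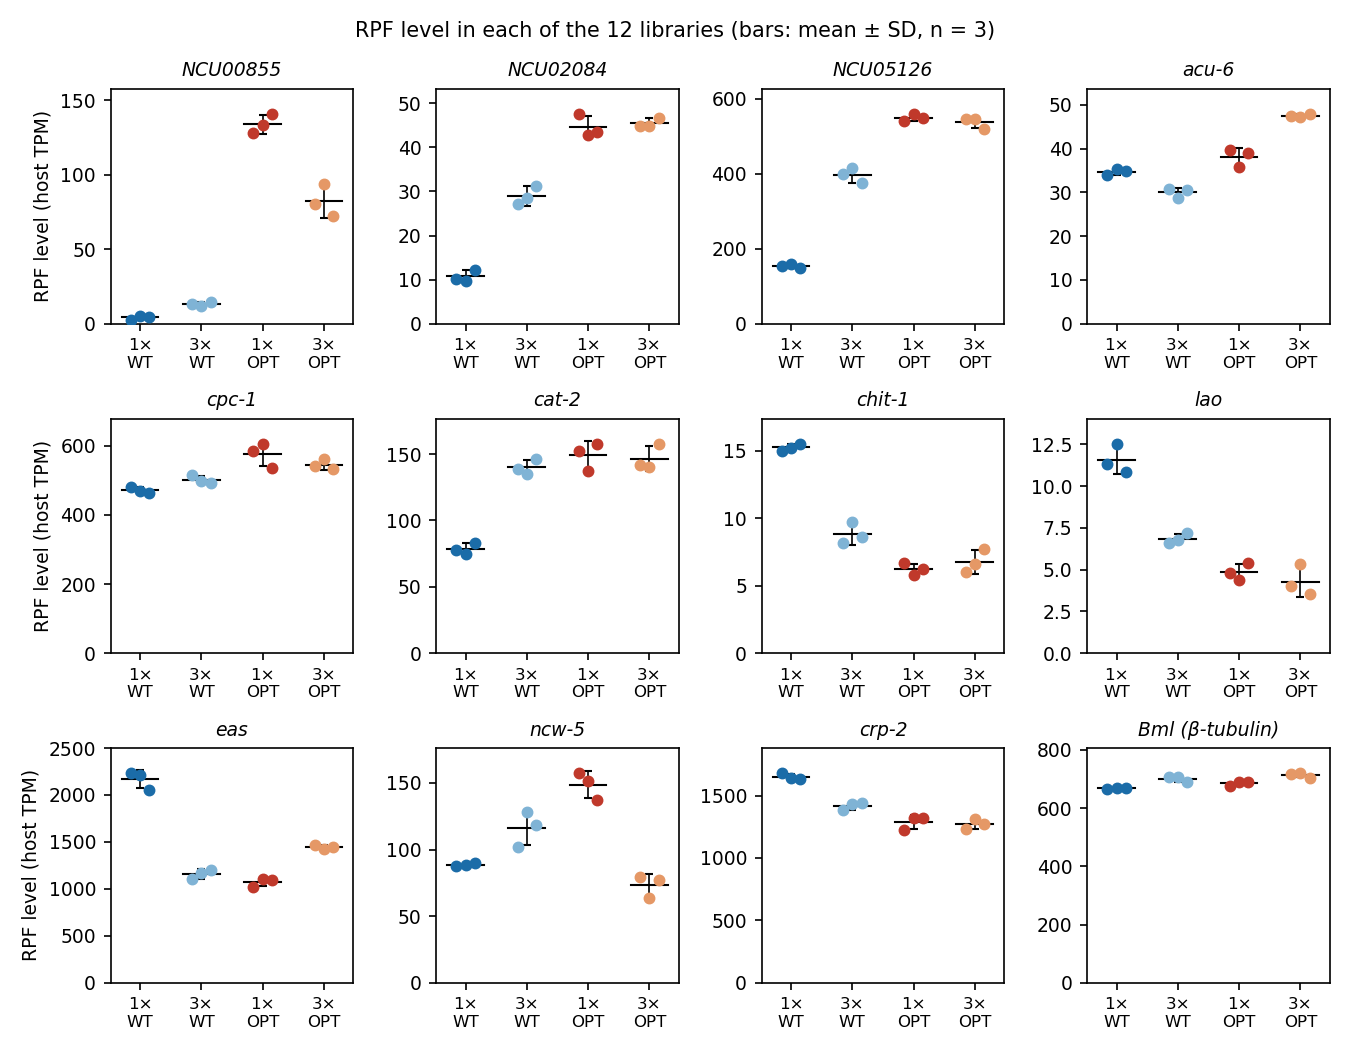
RPF level (host TPM, axis from 0) of 12 genes in each library, by strain, with the mean and SD of 3 libraries as bars. NCU00855 separates by codon version, *cat-2* and *eas* set 1× WT-EDP apart, *ncw-5* is lowest in 3× OPT-EDP, and β-tubulin stays between 666 and 720.2 TPM.

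The genes of cross-pathway control did not move together. *cpc-1* was at 480.5, 469 and 464 TPM in 1× WT-EDP, 514, 498 and 493 TPM in 3× WT-EDP, 584, 606 and 537 TPM in 1× OPT-EDP and 543, 561 and 533 TPM in 3× OPT-EDP. Every OPT-EDP library was above every WT-EDP library, but the difference was only 1.15-fold (log2 difference 0.20, SE 0.046, limma adjusted p = 0.032), with 0.12 at 3 copies (adjusted p = 0.52) and an adjusted p of 0.53 without 1× WT-EDP. Its mRNA was at 699.5 and 732 TPM in WT-EDP and at 598 and 745 TPM in OPT-EDP, in no order by codon version. *cpc-3* was at 7.75 to 8.64 TPM in WT-EDP and 7.61 to 8.44 TPM in OPT-EDP libraries (log2 difference -0.019, adjusted p = 0.87). *cpc-2*, the counterpart of the ribosome-bound protein RACK1, was at 942, 971 and 1001 TPM in 1× WT-EDP and at 683 to 764 TPM in OPT-EDP libraries, and fell by 0.26 on the log2 scale (adjusted p = 0.01, and 0.82 without 1× WT-EDP).

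Of 60 amino acid biosynthesis genes, 0 were higher and 2 were lower in OPT-EDP by limma (3.33%, against 2.68% of all tested genes), with 1 higher and 8 lower at an unadjusted p under 0.05. Their median log2 difference was -0.037, against -0.023 for all tested genes. The lower genes were *cys-11*, which encodes ATP sulfurylase (-0.22, adjusted p = 0.012), and *lys-6* of lysine biosynthesis (-0.39, adjusted p = 0.0061). Without 1× WT-EDP neither was called (adjusted p = 0.59 and 0.27). *lys-6* was at 19.7 to 23.2 TPM in WT-EDP and 14.6 to 19.3 TPM in OPT-EDP libraries. The largest rise of the list was that of *asn-2*, asparagine synthetase, at 0.26, and it did not pass the test.

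Some genes for the cytosolic ribosome were lower in OPT-EDP strains when 1× WT-EDP was among the controls. Of 72 tested, 17 passed the test as lower (23.6%, against 2.68% of all tested genes) and 0 as higher. At an unadjusted p under 0.05 (limma) 40 were lower and 0 higher, against 754 and 543 of all 6801 tested genes. The log2 difference was below 0 for 70 of 72, against 3811 of all 6801 tested genes. The medians were -0.19 for the 32 genes of the small subunit and -0.18 for the 40 genes of the large subunit. *crp-2*, a small subunit gene, was at 1680, 1639 and 1630 TPM in 1× WT-EDP, 1383, 1436 and 1441 TPM in 3× WT-EDP, 1227, 1324 and 1320 TPM in 1× OPT-EDP and 1228, 1309 and 1274 TPM in 3× OPT-EDP. *crp-15*, also of the small subunit, had a log2 difference of -0.26 at 1 copy and -0.31 at 3 copies.

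Here too the 1× WT-EDP strain was the one that differed most. The summed RPF level of the 72 genes was 183321 to 186609 TPM in 1× WT-EDP, 159083 to 163585 TPM in 3× WT-EDP, 151894 to 155515 TPM in 1× OPT-EDP and 157896 to 159556 TPM in 3× OPT-EDP. The ranges of 3× WT-EDP and 3× OPT-EDP overlapped. The median log2 difference was -0.26 at 1 copy and -0.12 at 3 copies, where the median of all tested genes was -0.073. At 3 copies 0 genes were called. There 14 were lower and 1 higher at an unadjusted p under 0.05, against 640 and 123 of all 6801 tested genes. Without 1× WT-EDP the median was -0.11, 64 of 72 were below 0 and 0 were called (15 lower at an unadjusted p under 0.05). Of all 6801 tested genes, 4007 were then below 0 and 390 were lower at an unadjusted p under 0.05. The mRNA of these genes had a median difference of -0.13, and in the Δ*cpc-3* host the RPF median at 3 copies was -0.028 against 0.038 for all tested genes.

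Of 31 genes for the mitochondrial ribosome 5 were lower (16.1%, against 2.68% of all tested genes) and 0 higher, with 10 lower (32.3%, against 11.1%) and 0 higher at an unadjusted p under 0.05 and a median of -0.19. The called genes were NCU00103, NCU00211, NCU00977, NCU06450 and NCU06768. NCU06450 was at 37.9, 43.1 and 47.9 TPM in 1× WT-EDP, 36.1, 35.2 and 41.3 TPM in 3× WT-EDP, 30.9, 31.6 and 30.03 TPM in 1× OPT-EDP and 32.5, 33.8 and 30.9 TPM in 3× OPT-EDP. It was the only 1 of the 5 whose codon groups did not overlap. Without 1× WT-EDP 0 of the 31 were called, with a median of -0.094. At an unadjusted p under 0.05 2 were then lower, against 390 of all 6801 tested genes.

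The other lists held few calls. None of the 40 genes of oxidative phosphorylation, the 14 of the proteasome, the 10 of the nucleosome, the 37 of signal transduction and the 15 of carbon catabolite regulation was called by limma over the 12 libraries. At an unadjusted p under 0.05 these lists held 7, 0, 0, 1 and 4 genes, against 1297 of all 6801 tested genes (19.1%). The 7 genes of oxidative phosphorylation were all lower (17.5%, against 11.1% of all tested genes). The medians of the 5 lists were -0.084, 0.022, -0.030, -0.024 and -0.072, against -0.023 for all tested genes. Of 10 heat shock genes *hsp60* (mitochondrial chaperonin, -0.38, adjusted p = 0.042) and *hsp70-2* (-0.27, adjusted p = 0.039) were lower (20%, against 2.68% of all tested genes) and 0 were higher (1 at an unadjusted p under 0.05). Neither was called at 1 copy, at 3 copies or without 1× WT-EDP (adjusted p = 0.51 and 0.48). Of 25 clock and light genes only *ccg-9*, which encodes a trehalose synthase, was higher (0.65, adjusted p = 0.00094). Its level was 9.78, 9.12 and 7.78 TPM in 1× WT-EDP and 18.6, 20.01 and 20.3 TPM on average in 3× WT-EDP and in the OPT-EDP strains with 1 and 3 copies, so that it set 1 strain apart and not the codon versions. Of 9 conidiation markers tested *eas* alone was called, and of 6 hyphal markers 0 were called (0 at an unadjusted p under 0.05).

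**Figure D5:**
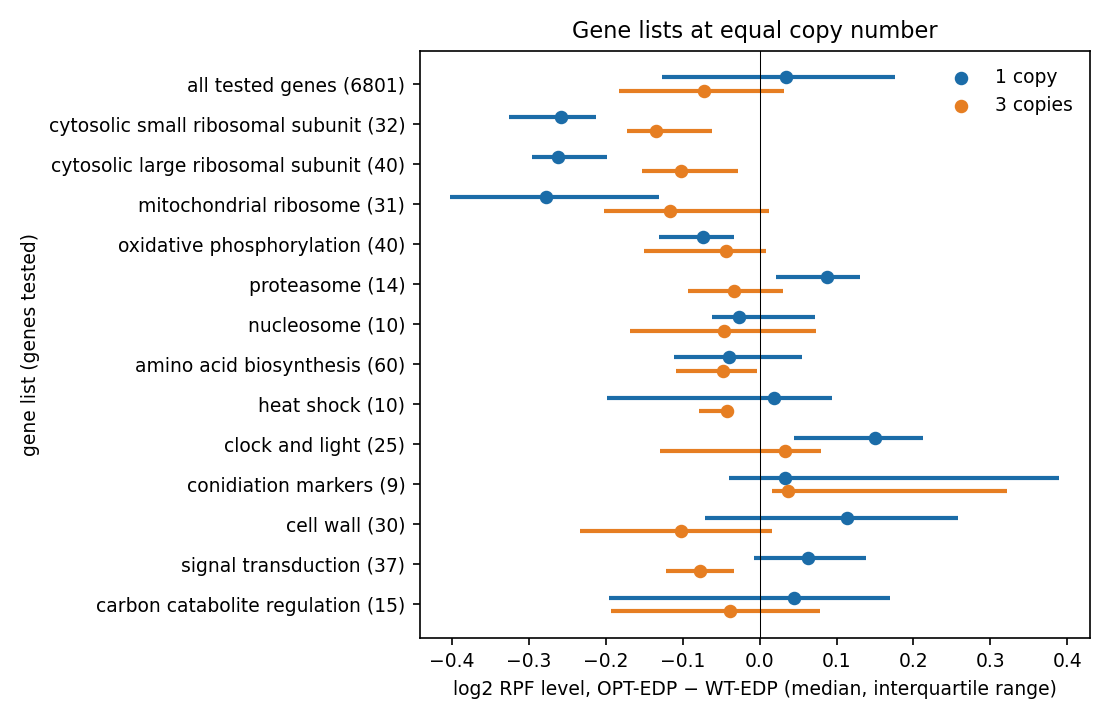
Median (point) and interquartile range (line) of the log2 difference in RPF level between OPT-EDP and WT-EDP strains, at 1 copy in blue and at 3 copies in orange, for each gene list and for all tested genes (number of genes in brackets). The ribosomal lists have medians of -0.26 to -0.28 at 1 copy and of -0.10 to -0.13 at 3 copies.

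The response was also described by CDS length and by codon optimality of the host gene, measured as the tRNA adaptation index (tAI). Split into 5 equal classes from the shortest to the longest CDS, the tested genes had 26, 34, 40, 34 and 25 higher and 33, 43, 38, 38 and 30 lower calls, with medians between -0.033 and -0.0085. A tAI was available for 3077 of the 6801 tested genes, from the study's lists of proteins detected by mass spectrometry. The study states that its mass spectrometry favoured abundant proteins and missed most proteins whose mRNAs have poor codon usage. The tAI classes therefore do not span all host genes, and they were not matched for RPF level. Of 5 equal classes by tAI, the highest (above 0.263) had 38 of 616 genes lower (6.17%), against 10 to 13 genes (1.63% to 2.11%) in each of the others, and 12 genes higher (1.95%). The highest class also holds ribosomal protein genes, and their part in this count was not tested. At 3 copies 1 gene of that class was lower, against 0 to 3 in the others, and without 1× WT-EDP 0 were lower (47 at an unadjusted p under 0.05 by limma, against 28 to 36 in the others). In the classes of CDS length 0 to 3 genes were higher and 0 to 1 lower without that strain.

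Some further called genes with known products, chosen after their values were seen, are given next. Without 1× WT-EDP none of them passed the test. The catalase genes *cat-1*, *cat-2* and *cat-3*, which encode enzymes that degrade hydrogen peroxide, were higher in OPT-EDP (log2 differences 0.19, 0.49 and 0.29, limma adjusted p = 0.022, 0.00097 and 0.0026). *cat-2* was at 77.9, 74.6 and 83.3 TPM in 1× WT-EDP, 139, 135 and 146 TPM in 3× WT-EDP, 152, 137 and 158 TPM in 1× OPT-EDP and 142, 140.4 and 158 TPM in 3× OPT-EDP. The last 3 strains overlapped. *cre-1*, the carbon catabolite repressor, had 134, 144 and 127 TPM in 1× WT-EDP, 129, 123.3 and 142 TPM in 3× WT-EDP, 194, 180.4 and 175 TPM in 1× OPT-EDP and 171, 153 and 162 TPM in 3× OPT-EDP. Unlike *cat-2*, *cre-1* overlapped between the WT-EDP strains, and all its OPT-EDP libraries lay above them (1.30-fold, log2 difference 0.37, adjusted p = 0.0057), and without 1× WT-EDP it was 0.39 (adjusted p = 0.18).

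*adh-1*, an alcohol dehydrogenase gene, rose from 4504 to 5837 TPM in WT-EDP to 6148 to 6748 TPM in OPT-EDP libraries (0.30, adjusted p = 0.0044), and *inv*, the invertase gene, by 0.44 on the log2 scale (adjusted p = 0.0069). Lower genes included *aac*, the ADP/ATP carrier of mitochondria, at 2150, 2116 and 2190 TPM in 1× WT-EDP, 1664, 1728 and 1686 TPM in 3× WT-EDP, 1562, 1524 and 1592 TPM in 1× OPT-EDP and 1447, 1479 and 1396 TPM in 3× OPT-EDP. Its codon groups were separate (log2 difference -0.35, adjusted p = 0.00094, and 0.44 without 1× WT-EDP). *oxa-1*, a mitochondrial membrane insertase gene, and *nde-2*, an external NADH dehydrogenase gene, fell as well (-0.36 and -0.49, adjusted p = 0.0054 and 0.013), and so did the translation factor gene *eif5A* (-0.18, adjusted p = 0.037). Of 30 cell wall genes, also a list made after values were seen, 1 was higher (*ncw-3*, 3.33%, against 2.34% of all tested genes) and 7 lower (23.3%, against 2.68%), with a median of 0.0045. At 3 copies 2 were lower, and without 1× WT-EDP 0 were called (2 higher and 6 lower at an unadjusted p under 0.05 by limma). *ncw-3* was at 1183 to 1514 TPM in WT-EDP and 1555 to 1917 TPM in OPT-EDP libraries.

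For the genes tied to the construct and the controls no difference passed the test. *ccg-1*, whose promoter drives the reporters, had a log2 difference of 0.076 (adjusted p = 0.83), and *Bml*, the β-tubulin gene that served as a control, one of 0.032 (adjusted p = 0.72), with 666 to 707 TPM in WT-EDP and 677 to 720.2 TPM in OPT-EDP libraries. NCU16635 had one of -0.027 (adjusted p = 0.98). *csr-1*, the integration site, was at 19.7 to 54.3 TPM in replicates 1 and 2 and at 0.252 to 7.84 TPM in replicate 3 of the 4 strains, so its level moved with the replicate number, and its difference of 0.84 had an adjusted p of 0.84. Of the 20 genes next to *csr-1*, 10 on each side, 13 were tested. Of these 13, 1 was higher and 1 lower, against 2.34% and 2.68% of all tested genes. NCU00732 had a log2 difference of 1.29 at 1 copy (limma adjusted p = 0.00036) and -0.36 at 3 copies (adjusted p = 0.33), and the interaction was called (adjusted p = 0.0032). NCU00729 had -0.28 and -0.45 (adjusted p = 0.18 and 0.16), and without 1× WT-EDP neither was called (adjusted p = 0.98 and 0.53).

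The same strains were set side by side in the other readouts. The mRNA difference between OPT-EDP and WT-EDP, from 1 library per strain, was above 0 for 126 of 158 genes that rose in RPF (79.7%, against 47.8% of all tested genes), with a median log2 difference of 0.22. It was below 0 for 143 of the 182 that fell (78.6%, against 52.2%), with a median of -0.24. The 1× WT-EDP strain stood apart here as well: its mRNA was the lowest of the 4 for 103 of the risers (65.2%, against 22.2%) and the highest for 119 of the fallers (65.4%, against 31.7%). At 3 copies alone the mRNA medians were 0.10 and -0.12. The mRNA test called 40 genes higher and 5 lower, and all 45 had at least 1 library at 0. Only NCU05788 was also called in RPF.

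In the Δ*cpc-3* host, with other transformants of the same 4 reporters, the called genes were described at each copy number. At 3 copies the RPF difference was above 0 for 38 of 154 risers (24.7%, against 56.8% of all tested genes), with a median log2 difference of -0.15, and below 0 for 54 of 179 fallers (30.2%, against 43.2%), with a median of 0.13. The lists of risers and fallers thus leaned the opposite way at 3 copies. At 1 copy the difference was above 0 for 91 of 154 risers (59.1%, against 41.1% of all tested genes), with a median of 0.089, and below 0 for 145 of 179 fallers (81.0%, against 58.9%), with a median of -0.36. That lean was seen against replicates 1 to 3 of 1× WT-EDP and was weaker or absent against replicate 4. From 1 library it cannot be told which of these replicates are unusual. The ratio of FPKM to interval midpoint (median over the longest class of CDS) was 0.891 to 0.931 in replicates 1 to 3. It was 0.694 to 0.774 in the other 10 libraries of that host, replicate 4 among them. Against replicate 4 alone, a choice made after seeing the data and with no test, the medians at 1 copy were -0.020 for risers and 0.075 for fallers, against 0.084 for all tested genes. The test in that host called 0 genes higher and 2 lower at 1 copy (1312 at an unadjusted p under 0.05 by limma) and 4 higher and 7 lower at 3 copies. Without replicate 4 it called 444 and 1431 at 1 copy, where only replicates 1 to 3 then stood for 1× WT-EDP, and 83 and 79 at 3 copies. Whether a gene's codon difference itself depended on *cpc-3* was not tested. In the WT host the ratio of FPKM to interval midpoint was likewise lowest in 1× WT-EDP. It was 0.924 and 0.930 in replicates 1 and 2, against 0.949 to 0.964 in those of the other strains. In replicate 3 it was also the lowest, by less. With midpoints in place of FPKM, 256 genes were higher and 209 lower at 1 copy in that host. The part of this ratio in setting 1× WT-EDP apart was not otherwise tested.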

How the data were processed

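RPF and mRNA libraries of *N. crassa* mycelia were assigned to host, reporter and replicate number from their labels. The authors mapped reads to CDS regions and deposited FPKM with interval bounds, and a coverage signal for each CDS, which was not used here. The submitters' processing notes name Bowtie2 and Cufflinks. Versions, genome build and annotation are not given in the sources used here. Every library listed 9731 entries. Both NCU05784 entries were left out. Deposited FPKM were divided by their sum over host genes without NCU16635. FPKM are not counts, so log2(host TPM + 0.1) was tested with limma (version 3.58.1 in R 4.3.3) over 6801 genes with a mean of at least 1 TPM, in 1 fit of 4 strains, with Benjamini-Hochberg adjustment. The same model was used for 7708 genes in 4 mRNA libraries (938863 to 1190368 reads on CDS regions) and for 6821 genes in 13 RPF libraries of the Δ*cpc-3* host (1270403 to 7058910 reads). The interval bounds times CDS length were spaced by whole reads, so read numbers were estimated from their midpoint, which can end in 0.5, and they describe depth only. A level estimated from the interval midpoint was an alternative to the FPKM. The model fit was tested on simulated data with equal changes at both copy numbers. These data held no other effect of strain or replicate number, so the test does not cover such effects. Python 3.11.15, numpy 2.4.6, pandas 2.3.3 and matplotlib 3.10.9 were used for the other calculations and the plots.

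Genes were named by a rule. Among genes with an adjusted p under 0.05 and the same sign in all 6 pairs of equal copy and replicate number, the 10 largest rises and 10 largest falls were taken, with the 3 largest interactions (NCU03821, NCU00855 and NCU00265), *cpc-1*, *cpc-3*, *csr-1*, *ccg-1*, *Bml*, NCU16635 and called members or extremes of the gene lists. The lists of ribosomal, mitochondrial, proteasome, nucleosome, signalling and carbon catabolite genes came from the study's functional terms for classes of codon usage and CDS length, the tAI of 3102 genes from its supplementary tables, and the other lists from gene symbols of the NC12 table, in which 9728 of 9729 identifiers were found. The gene lists, the members and the rule were chosen with earlier results of these data known. Alternatives for pseudocount, minimum, scaling, level estimate, variance model, grouping, replicate block and left-out libraries are given in the closing section.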

Additional observations from a re-analysis of the deposited data

Results flagged for a closer look

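For 21 genes named in the report the codon difference at 3 copies differed from that at 1 copy by the interaction test of limma (adjusted p under 0.05). All values are the 3-copy minus the 1-copy log2 difference between OPT-EDP and WT-EDP in RPF level, and all of these differences include the 3 libraries of the 1× WT-EDP strain. NCU03821 had the largest, at -2.76: it was at 0.325, 0.347 and 0.551 TPM in 1× WT-EDP and between 1.498 and 6.09 TPM in the other 3 strains, with at most 33.0 reads in a library. Genes with a difference above 0 at 1 copy that was nearer to 0 or below it at 3 copies were NCU00855 (-2.32), NCU02084 (-1.39), NCU05126 (-1.40), NCU04058 (-0.94), *ncw-5* (-1.41), *tcu-1* (-0.86), *ccg-9* (-1.04), *cat-2* (-0.86), *gst-4* (a glutathione S-transferase gene, -0.96), *ham-8* (a hyphal fusion gene, -0.49), *ncw-3* (-0.52) and *gh16-1* (a glycoside hydrolase gene, -0.73). Genes with a difference below 0 at 1 copy that was nearer to 0 or above it at 3 copies were NCU00265 (2.14), *mig-4* (1.54), *eas* (1.34), *chit-1* (0.90), NCU07159 (0.87) and *acw-10* (an anchored cell wall protein gene, 0.66). In *acu-6* (0.52) and NCU09326 (-0.46) the difference was larger at 3 copies than at 1 copy.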

How the results depend on the processing

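With all 12 RPF libraries, 159 genes were higher and 182 lower in OPT-EDP. Scaling over all entries gave 61 and 41, 2 codon groups without copy number 35 and 35, strain means as replicates 1 and 0 (504 at an unadjusted p under 0.05), a 1.5-fold threshold 38 and 31, and omission of replicate 3 gave 118 and 105. Leaving out 1 library at a time gave 99 to 150 higher and 99 to 177 lower genes. Leaving out a strain, an alternative chosen after seeing the data, gave 5 and 1 (1× WT-EDP), 252 and 223 (3× WT-EDP), 80 and 161 (1× OPT-EDP) and 54 and 24 (3× OPT-EDP). At 1 copy (297 and 147) scaling over all entries gave 98 and 50, the fold threshold 136 and 59, and omission of replicate 3 294 and 118, and leaving out 1 library 143 to 281 and 72 to 146. At 3 copies (6 and 16) a minimum of 10 TPM gave 14 and 33, no minimum 9 lower, scaling over all entries 2 and 0 (364 at an unadjusted p under 0.05), median-ratio scaling 12 and 8, a variance trend 14 and 27, omission of replicate 3 0 and 0 (887 at an unadjusted p under 0.05), the fold threshold 10 lower, and leaving out 1 library 2 to 7 and 1 to 18. The interaction (68 genes) gave 127 with a minimum of 10 TPM, 9 with scaling over all entries, 123 genes with a variance trend, 7 without replicate 3, and 33 to 75 when 1 library was left out. The mRNA calls (40 and 5) were 0 and 0 with a pseudocount of 1 (465 at an unadjusted p under 0.05), 2 and 1 with a minimum of 10 TPM, and 0 whenever 1 library was left out (528 to 609 at an unadjusted p under 0.05). In the Δ*cpc-3* host the 11 calls at 3 copies became 0 to 162 when 1 library was left out (477 to 1076 at an unadjusted p under 0.05), with 162 without 1× WT-EDP replicate 4. Omission of any 1 library except 3× WT-EDP replicate 3 and those of 1× OPT-EDP moved a count over all libraries by more than 1.5-fold. At 1 copy this held for each 1× WT-EDP library and for 1× OPT-EDP replicates 1 and 2, at 3 copies for each library other than those of 1× OPT-EDP, and for the interaction for replicates 1 and 2 of every strain but 1× OPT-EDP. The cause of these shifts was not tested.

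Same-numbered libraries of equal copy number and different codon version had deviations that correlated by 0.022 to 0.29, over 0.1 in 3 of 6 pairs of libraries, and 7 of 12 libraries correlated best with their own number. The labels do not tie the numbers to a shared batch, so they were not used for pairing. Replicate 3 of the 4 strains nevertheless stood apart from replicates 1 and 2. Its ratio of FPKM to interval midpoint in the longest CDS class was 1.003 to 1.006, against 0.924 to 0.964. The main test leaves such a shared difference in the spread between libraries. With a replicate block 308 genes were higher and 401 lower, 523 and 284 at 1 copy, 17 and 41 at 3 copies, and 193 for the interaction. In the Δ*cpc-3* host the block gave 56 higher and 63 lower genes at 3 copies (119 in all). At 1 copy it gave 422 higher and 1359 lower there. Only 1× WT-EDP had a replicate 4 in that host, so with the block that library did not enter the 1-copy difference.

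List medians moved by more than the spread of the pairs for the small ribosomal subunit (-0.11 without 1× WT-EDP, -0.27 without 3× WT-EDP), the mitochondrial ribosome (-0.32 without 3× WT-EDP), carbon catabolite genes (0.12 with a minimum of 10 TPM), conidiation markers (0.099 without 1× WT-EDP, -0.027 without 1× OPT-EDP, 0.097 without 3× OPT-EDP), hyphal markers (0.045 without 3× OPT-EDP) and heat shock genes (-0.064 with midpoints, 0.041 without 3× WT-EDP). The direction turned for *ncw-5* (-0.47 without 1× OPT-EDP), NCU04551 (-1.47 without 3× WT-EDP, -2.01 without 1× OPT-EDP), and *acw-10* and *eas* (0.11 each without 1× WT-EDP). Depth limits NCU04551, NCU11340 and NCU09964, which had 0 reads in some libraries.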
